A study of Rattus norvegicus with 12 samples.

Results

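The 40 genes described here serve cell division: 14 act in DNA replication, its licensing or the step that commits a cell to it, and 26 act in mitosis or mark dividing cells. They were chosen by gene symbol and function, without a threshold on any measured value, but with earlier results of these data known. Each symbol named 1 row of the 40154 rows of the gene table. The bladders came from female Wistar rats aged 10 to 12 weeks. In the 3 injured groups the spinal cord had been cut through completely at thoracic segment 10, per the sample labels, and tissue was taken 7, 14 or 28 days later. The remaining group is labelled only as normal control, and whether it had a sham operation is not stated. Each of the 4 groups had 3 libraries of total RNA depleted of ribosomal RNA and read as single ends of 50 bases. The labels do not say whether each library came from a separate rat, so p-values measure the spread between these libraries, which may be partly technical. In whole tissue, fewer dividing cells and less RNA of these genes per cell cannot be told apart.

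A dividing cell first copies its DNA and then shares the copies out. Origin licensing factors load the MCM helicase onto DNA, cyclin E drives entry into S phase, and the sliding clamp and the enzymes of deoxynucleotide supply serve the copying itself. Cyclin B with the kinase Cdk1 then drives mitosis, in which kinesins, checkpoint kinases and the anaphase-promoting complex move and release the chromosomes. In mammalian cells, replication genes are typically transcribed at the G1/S border under E2F factors, and mitotic genes in G2 and M. MuvB complexes, with the FOXM1 they recruit, act on mitotic genes through the cell cycle homology region (CHR), and NF-Y binds the CCAAT boxes of many of them. The adult bladder lining and muscle normally renew slowly.

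The 12 libraries held 26275314 to 30747936 counts, and all 40 genes were among the 17687 that passed the expression filter. Levels in single libraries are given as CPM (counts scaled to library size, with TMM factors), and changes as log2 fold changes ± SE. Adjusted p-values come from edgeR's quasi-likelihood test with Benjamini-Hochberg adjustment over all genes tested, and genes with an adjusted p below 0.05 are referred to as called. Other cell types and blood moved with the injury as well. All 10 macrophage and myeloid markers were higher at day 7 and at day 28, and 5 of them at day 14. Their summed level was 373 to 443 CPM in control, 1090 to 1456 CPM at day 7, 525 to 768 CPM at day 14 and 1033 to 1438 CPM at day 28. Endothelial markers, of which 9 of 10 were higher at day 7 and 7 at day 28, summed to 269 to 295 CPM in control, 785 to 896 CPM at day 7, 311 to 490 CPM at day 14 and 404 to 636 CPM at day 28. Of 9 T and NK cell markers, 1 was higher at day 7 and 8 at day 28, and their sums were 78.1 to 84.8 CPM in control, 89.8 to 188 CPM at day 7, 79.7 to 104 CPM at day 14 and 224 to 314 CPM at day 28. Of 9 erythroid markers 7 were higher at day 7, at summed levels of 507, 1105 and 9654 CPM, against 198 to 867 CPM in control; the highest was replicate 3. Of 14 urothelial markers 6 were lower and none higher at day 7, 5 were lower and 2 higher at day 28, and none of these 14 was at 0 in all libraries. The part of these cell types in the results on the 40 genes was not tested.

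Promoter windows from RefSeq (build GRCr8), running from 250 bases before to 50 bases after the annotated gene start, were found for 30 of the 40 genes, 9 replication and 21 mitotic. Ccne2, E2f1, Aurkb, Ccna2, Mcm4, Cdc6, Foxm1, Rrm2, Tpx2 and Ube2c had no entry. Both strands were searched for the CCAAT box (CCAAT), for a CHR (TTTGAA or TTCGAA) and for an E2F site (TTTGGCGC, TTTCGCGC, TTTCCCGC or TTTGGCGG), and matches were allowed to overlap. The windows printed here show which of these motifs the promoters of 3 replication and 3 mitotic genes hold. The first 3 belong to subunits of the MCM helicase, Mcm5 (chr19:13488563-13488862, plus strand), Mcm6 (chr13:42404303-42404602, minus strand) and Mcm3 (chr9:30733697-30733996, minus strand). They are followed by Ccnb2, which encodes cyclin B2 (chr8:79981609-79981908, minus strand), Plk1, a mitotic kinase (chr1:186147408-186147707, plus strand), and Cdk1, the kinase partner of the mitotic cyclins (chr20:19265043-19265342, plus strand). Each is printed 5′ to 3′ on the strand of its gene, and capitals mark the matches on either strand.
Mcm5: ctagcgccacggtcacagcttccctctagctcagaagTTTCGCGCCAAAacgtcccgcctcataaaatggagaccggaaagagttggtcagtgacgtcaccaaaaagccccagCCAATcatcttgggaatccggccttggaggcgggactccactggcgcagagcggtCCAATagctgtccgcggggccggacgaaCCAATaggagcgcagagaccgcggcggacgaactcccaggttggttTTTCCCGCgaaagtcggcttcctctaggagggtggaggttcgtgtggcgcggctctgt
Mcm6: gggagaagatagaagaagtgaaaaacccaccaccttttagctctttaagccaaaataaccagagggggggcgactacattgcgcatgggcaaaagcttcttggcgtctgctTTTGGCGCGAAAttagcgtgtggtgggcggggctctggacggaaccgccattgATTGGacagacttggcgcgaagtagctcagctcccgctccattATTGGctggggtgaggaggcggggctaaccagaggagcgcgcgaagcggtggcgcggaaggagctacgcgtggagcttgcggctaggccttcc
Mcm3: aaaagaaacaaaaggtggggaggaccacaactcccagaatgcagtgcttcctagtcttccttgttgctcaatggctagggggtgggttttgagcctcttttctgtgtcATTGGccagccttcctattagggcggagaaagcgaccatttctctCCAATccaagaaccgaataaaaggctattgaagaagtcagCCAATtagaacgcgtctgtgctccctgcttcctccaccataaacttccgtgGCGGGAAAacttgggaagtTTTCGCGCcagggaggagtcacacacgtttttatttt
Ccnb2: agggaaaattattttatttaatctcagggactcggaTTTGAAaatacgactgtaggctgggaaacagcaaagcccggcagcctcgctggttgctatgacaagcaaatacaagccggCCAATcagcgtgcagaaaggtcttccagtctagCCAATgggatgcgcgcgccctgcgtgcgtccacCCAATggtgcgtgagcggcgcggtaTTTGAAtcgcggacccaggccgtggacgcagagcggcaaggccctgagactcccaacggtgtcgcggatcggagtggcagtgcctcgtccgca
Plk1: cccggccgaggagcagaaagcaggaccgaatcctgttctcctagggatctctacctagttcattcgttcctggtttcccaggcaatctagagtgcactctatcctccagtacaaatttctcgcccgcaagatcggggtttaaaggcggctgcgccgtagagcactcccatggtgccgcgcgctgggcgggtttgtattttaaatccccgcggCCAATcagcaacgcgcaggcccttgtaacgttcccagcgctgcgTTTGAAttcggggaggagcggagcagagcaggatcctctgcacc
Cdk1: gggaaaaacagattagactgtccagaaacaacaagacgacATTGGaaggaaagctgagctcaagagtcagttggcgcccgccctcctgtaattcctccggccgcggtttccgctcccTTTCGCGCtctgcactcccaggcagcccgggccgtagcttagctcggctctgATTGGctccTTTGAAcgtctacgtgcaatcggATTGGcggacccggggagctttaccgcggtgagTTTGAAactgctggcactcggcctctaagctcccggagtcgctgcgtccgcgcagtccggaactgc

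The 3 MCM windows printed hold E2F matches and CCAAT boxes and no CHR. Of the MCM windows not printed, that of Mcm2 holds 2 E2F matches, 2 CHR matches and no CCAAT box. That of Mcm7 holds 2 E2F matches, 1 CHR match and 3 CCAAT boxes. The Ccnb2 window holds 3 CCAAT boxes and 2 CHR matches and the Plk1 window 1 of each, with no E2F match in either. Cdk1 has 3 CCAAT boxes, 2 CHR matches and the only E2F match among the mitotic windows. Not all mitotic windows look like these: that of Ccnb1 holds 2 CCAAT boxes and no CHR, and those of Bub1, Aurka and Melk hold no match. Over the classes, an E2F match was present in 7 of 9 replication windows (77.8%) and 1 of 21 mitotic windows (4.76%), against 2.18% of all 33469 promoters. A CHR was present in 2 of 9 replication windows (22.2%) and 14 of 21 mitotic windows (66.7%), against 19.7% of all promoters. The CCAAT box was common in both, at 5 of 9 replication windows (55.6%) and 17 of 21 mitotic windows (81.0%), against 37.5% of all promoters. CCAAT and CHR occurred together in 1 of 9 replication windows (11.1%), that of Mcm7, in 13 of 21 mitotic windows (61.9%) and in 7.95% of all promoters. The median E2F match in replication windows began 25.5 bases before the start, and the median CHR match in mitotic windows 43 bases before it. A match describes letters only, since no binding was measured here.

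**Figure D1:**
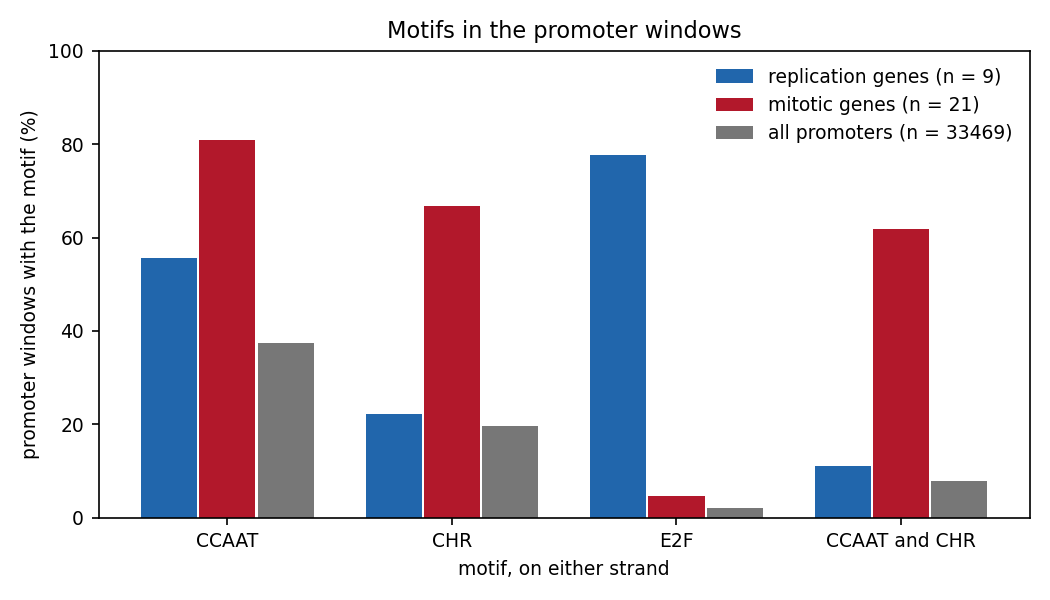
Share of promoter windows, in percent, that hold each motif on either strand, for 9 replication genes, 21 mitotic genes and all 33469 promoters in the RefSeq table. The E2F bar is tallest for replication genes (77.8%) and the CHR bar for mitotic genes (66.7%).

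At day 7 nearly every one of these genes was higher than in control, replication genes by much smaller folds than mitotic genes. Of the replication genes 13 of 14 were called higher, and of the mitotic genes all 26, against 15.6% of all genes tested. The median log2 fold change was 1.57 for replication genes (2.97-fold), 3.73 for mitotic genes (13.3-fold) and −0.01 over all genes tested. Every library of day 7 lay above every control library for 38 of the 40 genes, which was so for 23.6% of all genes tested. The exceptions were Mcm4 and Cdc6, where the lowest day-7 library, replicate 1, lay within the control range.

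The replication class was varied. Of the clamp and nucleotide genes, Rrm2 (chromosome 6, 43884627 to 43890818), the regulated subunit of ribonucleotide reductase that supplies deoxynucleotides in S phase, had the largest change of all 40. It stood at 46.9, 51.0 and 54.2 CPM at day 7, against 2.92, 2.15 and 0.929 CPM in control (4.66 ± 0.50, adjusted p = 0.000170). Pcna (chromosome 3, 124880698 to 124884570), the sliding clamp of DNA polymerase, stood at 74.7, 99.0 and 116 CPM at day 7, against 46.6, 59.7 and 55.7 CPM in control (0.84 ± 0.17, adjusted p = 0.00466). Its fold was small, but its control level of 95.0 TPM was the highest of the 40 genes and its increase of 59.3 TPM at day 7 was exceeded by those of Prc1, 70.2 TPM, and Cdk1, 63.3 TPM. Thymidylate synthase (Tyms), which makes dTMP, changed by 0.69 ± 0.17 (adjusted p = 0.0134), and it shares 32 bases with Yes1 on the opposite strand.

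The G1/S cyclins and E2f1 rose by 1.82 to 2.53. Ccne1 (cyclin E1, chromosome 1, 94485830 to 94495112) stood at 6.38, 7.79 and 8.72 CPM at day 7, against 1.5, 1.42 and 1.04 CPM in control (2.53 ± 0.32, adjusted p = 0.000342). Ccne2 (cyclin E2, chromosome 5, 24434077 to 24446406) stood at 5.68, 8.59 and 9.67 CPM at day 7, against 1.29, 1.79 and 2.29 CPM in control (2.16 ± 0.33, adjusted p = 0.000890). No library of either cyclin overlapped between the groups. Of the 40 genes 10 overlap another gene, and no label states if reads were assigned by strand. Ccne2 overlaps Ints8 on the opposite strand by 405 bases, and Ints8 held 17451 counts, against 1114 for Ccne2. E2f1 (chromosome 3, 150062895 to 150073721), the factor that activates S-phase genes, stood at 14.5, 14.8 and 16.0 CPM at day 7, against 4.04, 6.01 and 2.82 CPM in control (1.82 ± 0.26, adjusted p = 0.000608).

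The MCM subunits, which act as one ring, did not change by the same amount. Mcm5 (2.03 ± 0.45), Mcm3 (1.63 ± 0.34) and Mcm6 (1.62 ± 0.27) rose most, and Mcm2 and Mcm4 rose by 0.95 each. Mcm4 (chromosome 11, 89511191 to 89524892) stood at 31.8, 62.9 and 76.1 CPM at day 7, against 25.7, 30.6 and 32.0 CPM in control (0.95 ± 0.29, adjusted p = 0.0305). Mcm7 (chromosome 12, 19306615 to 19313877), whose introns host the miRNA genes Mir106b, Mir25 and Mir93, stood at 34.3, 43.3 and 43.9 CPM at day 7, against 26.1, 34.3 and 32.0 CPM in control. The lowest day-7 library and the highest control library were level, and the change of 0.40 ± 0.22 did not pass the test (adjusted p = 0.199). The licensing factors that load the ring, Cdt1 and Cdc6, changed by 1.52 ± 0.37 and 1.03 ± 0.32.

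Among the proliferation markers and chromosome proteins, Mki67 (Ki-67, chromosome 1, 207993895 to 208020454 on rn6), which coats mitotic chromosomes and is the usual histological marker of cycling cells, had the highest counts. It stood at 151, 230 and 225 CPM at day 7, against 17.2, 9.22 and 7.32 CPM in control (4.17 ± 0.48, adjusted p = 0.000224). The groups were far apart, and replicate 1 was the highest of the controls. Top2a, the topoisomerase that untangles sister chromatids, rose by 3.93 ± 0.52. Foxm1, a transcription factor of G2 and M genes, rose less, by 1.79 ± 0.21, and its day-7 libraries of 20.2, 20.5 and 22.6 CPM were close together, against 6.65, 7.03 and 4.61 CPM in control.

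The mitotic cyclins and their kinase moved together, with changes of 3.75 to 4.48. Ccna2 (cyclin A2, chromosome 2, 123274727 to 123282266) stood at 45.0, 57.2 and 50.9 CPM at day 7, against 3.83, 1.86 and 1.14 CPM in control (4.48 ± 0.45, adjusted p = 0.000125). That was the largest mitotic change. Ccna2 overlaps Exosc9 on the opposite strand by 897 bases, and Exosc9 held 3948 counts over all libraries, against 5710 for Ccna2. Cdk1 (chromosome 20, 20576341 to 20591510), the kinase of these cyclins, stood at 40.6, 53.3 and 52.1 CPM at day 7, against 5.26, 3.43 and 2.18 CPM in control (3.75 ± 0.38, adjusted p = 0.000129). Ccnb1 and Ccnb2, the B-type cyclins, rose by 4.26 ± 0.59 and 3.87 ± 0.59. In all 4 genes control replicate 1 was the highest control library, and the day-7 libraries were still several times above it.

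The 8 mitotic kinases and checkpoint genes rose by a median of 3.67. Plk1 led them at 3.98 ± 0.50, with the checkpoint kinase Ttk at 3.92 ± 0.44, Melk at 3.87 ± 0.55 and the checkpoint protein Bub1b at 3.86 ± 0.57. Aurkb, the kinase of the chromosomal passenger complex, rose by 3.47 ± 0.51, its partner survivin (Birc5) by 3.02 ± 0.51 and the checkpoint kinase Bub1 by 2.74 ± 0.27. The lowest was the centrosomal kinase Aurka, at 11.4, 11.4 and 10.7 CPM at day 7, against 3.38, 3.10 and 2.82 CPM in control (1.85 ± 0.26, adjusted p = 0.000639). Aurka overlaps Fam210b on the opposite strand by 89 bases, and Fam210b held 19601 counts over all libraries, against 1843 for Aurka.

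Of the kinesins, kinetochore and spindle genes, Tpx2 (chromosome 3, 148327965 to 148370187), which assembles microtubules around chromosomes, stood at 52.0, 57.6 and 58.9 CPM at day 7, against 6.09, 3.53 and 3.22 CPM in control (3.71 ± 0.33, adjusted p = 7.99e-05). Cenpe (chromosome 2, 240395974 to 240454785), the kinetochore motor that aligns chromosomes, stood at 44.9, 49.3 and 43.0 CPM at day 7, against 5.40, 3.86 and 2.54 CPM in control (3.54 ± 0.31, adjusted p = 7.95e-05). Both were tightly grouped at day 7. Prc1 (chromosome 1, 142087181 to 142108746), which bundles microtubules at the spindle midzone, had the second highest counts of the class. Its levels were 171, 118 and 107 CPM at day 7, against 16.1, 12.9 and 16.5 CPM in control (3.12 ± 0.29, adjusted p = 8.51e-05). Here replicate 1 was the highest day-7 library, which was so for 4 of the 26 mitotic genes.

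Kif20a, Cenpf, Hmmr, Kif11 and Nusap1, which serve cytokinesis, the kinetochore or the spindle, rose by 3.54 to 4.24. Kif20a is uncertain in level: it overlaps Cdc23 on the opposite strand by 1891 bases, and Cdc23 held 17819 counts over all libraries, against 4851 for Kif20a. Kif23 (chromosome 8, 66866043 to 66893241), the kinesin of the central spindle, was the exception of the mitotic class. It stood at 43.4, 53.9 and 58.5 CPM at day 7, against 28.3, 27.7 and 25.9 CPM in control, a change of 0.93 ± 0.18 (adjusted p = 0.00386). Its control level was the highest of all mitotic genes per transcript length, 16.3 TPM (counts scaled to transcript length and library size, the authors' values) against a class median of 1.64 TPM. Of the anaphase-promoting complex partners, the ubiquitin-conjugating enzyme Ube2c (chromosome 3, 161236971 to 161239371) stood at 18.2, 19.5 and 23.0 CPM at day 7, against 1.04, 0.947 and 0.750 CPM in control (4.46 ± 0.35, adjusted p = 4.90e-05). Ube2c had the smallest p of the 40 genes, and Cdc20, an activator of the complex, rose by 3.38 ± 0.38, below the mitotic median.

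**Figure D2:**
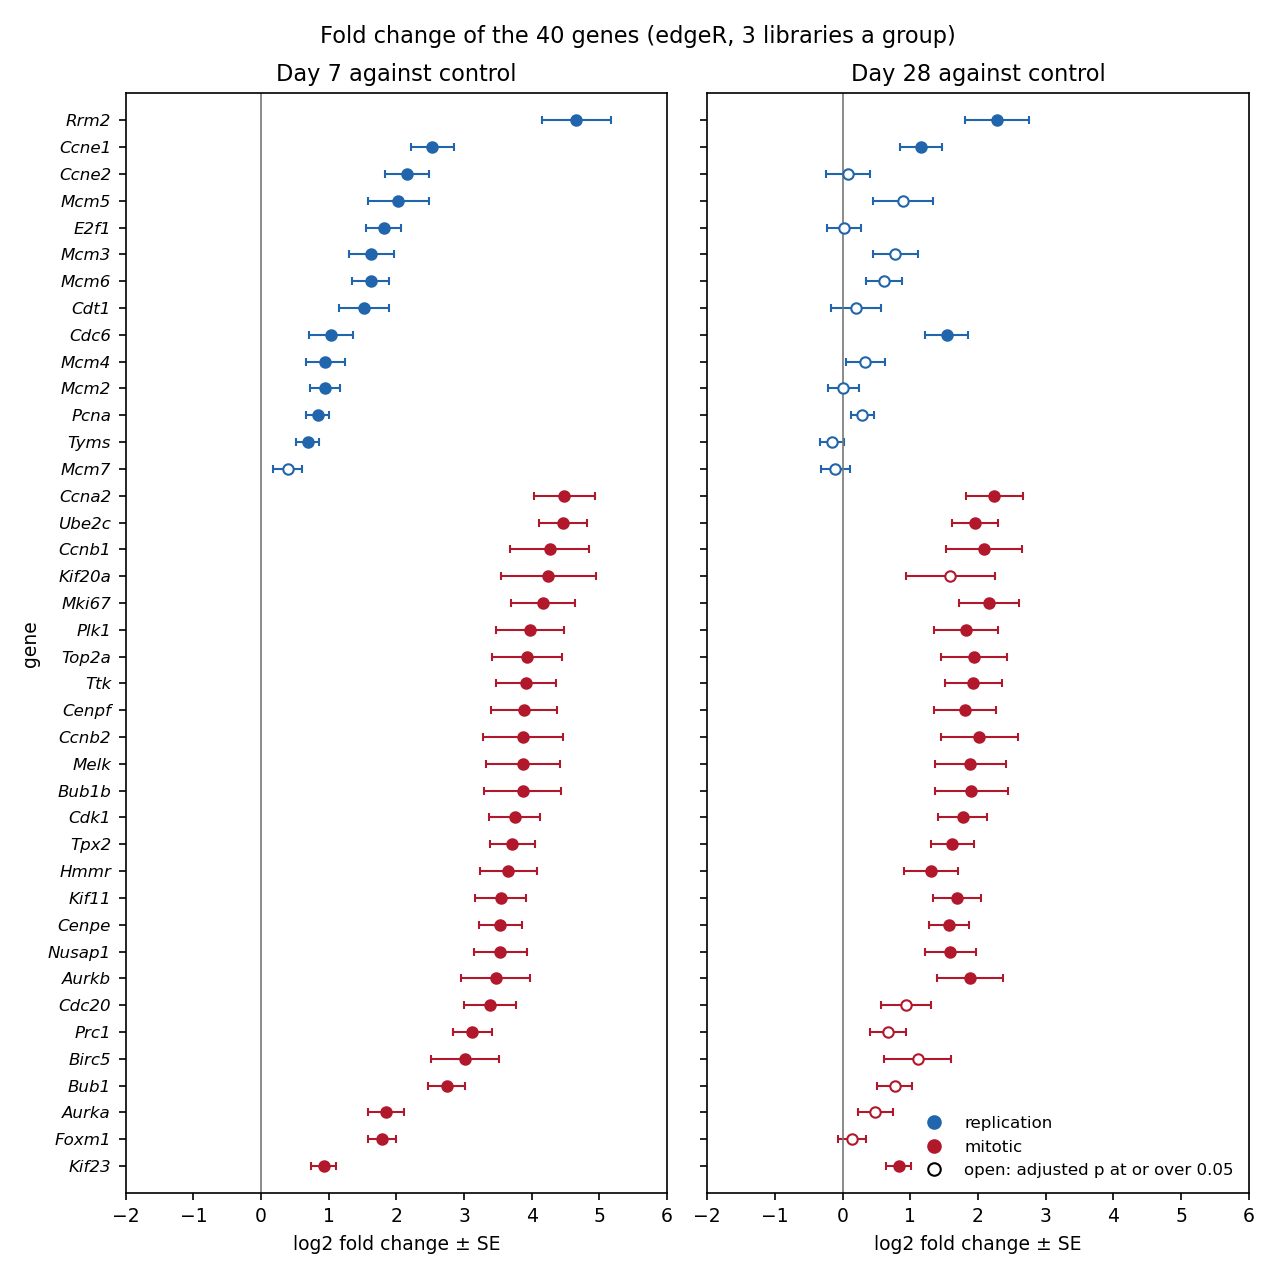
Log2 fold change ± SE against control at day 7 and at day 28 for the 14 replication genes (blue) and the 26 mitotic genes (red), each class ordered by its day-7 value. Filled points were called in edgeR at an adjusted p under 0.05 and open points were not. At day 7 only Mcm7 is open, and at day 28 most replication genes are.

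Within day 7, replicate 1 was the lowest library for all 14 replication genes and replicate 3 the highest for 13 of them. As a mean over the class, replication genes stood 1.12, 1.77 and 1.95 log2 units above the control mean in day-7 replicates 1, 2 and 3. Mitotic genes stood 3.43, 3.73 and 3.69 units above it, a narrower spread. Replicate 3 was also the library with most haemoglobin transcripts, 2.06% of its counts, against 0.117% and 0.262% in day-7 replicates 1 and 2; without it, 9 replication genes and all 26 mitotic genes were called. The calls of Mcm2, Mcm4, Tyms, Cdc6 and Cdt1 did not survive every omission of 1 library, and adjusted p-values of those 5 then reached 0.0507 to 0.157.

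**Figure D3:**
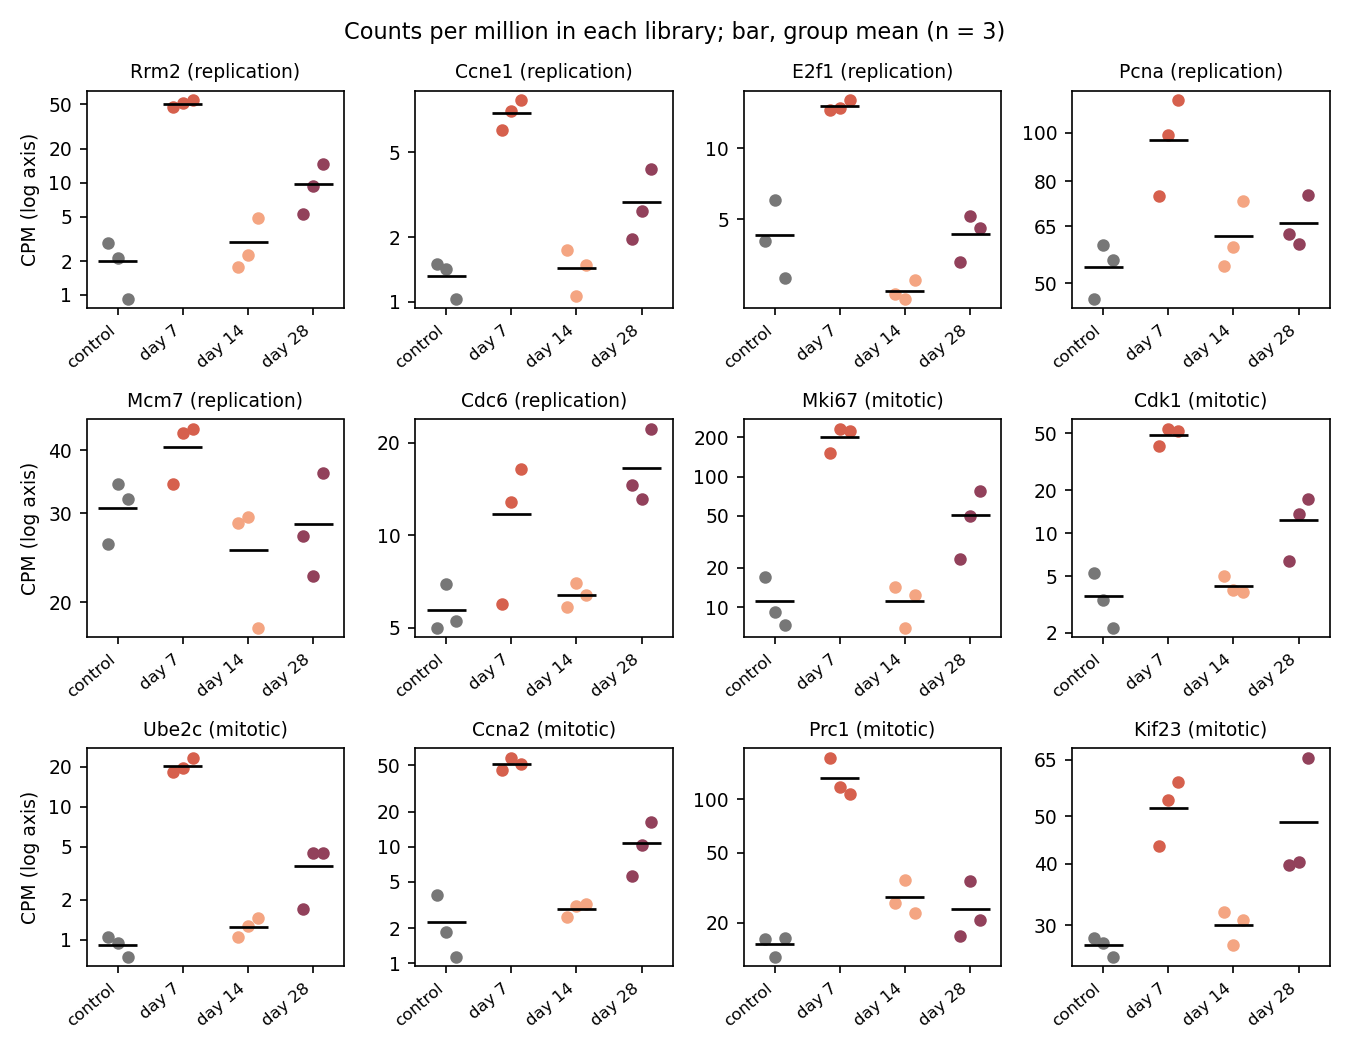
CPM in each library on a log axis for 12 of the genes, in the order control, day 7, day 14 and day 28, with a bar at each group mean (n = 3 per group). Mki67, Cdk1, Ube2c, Ccna2 and Rrm2 show a high day 7, a day 14 near control and an intermediate day 28, whereas Mcm7 overlaps between most groups and Cdc6 is highest at day 28.

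The size of the gap between the classes depended on the scale. Mitotic genes had the larger median rise at day 7 both as a fold change and as an increase in TPM. Replication genes had the smaller fold change at day 7, with a difference of −2.16 log2 units between the class medians, or −2.68 units when the classes were narrowed to genes of the replication fork and licensing and of mitosis proper. They also had the higher control level per transcript length, a median of 6.24 TPM (0.991 for Ccne2 to 95.0 for Pcna), against 1.64 TPM for mitotic genes (0.484 for Melk to 16.3 for Kif23). At day 7 the class medians were 22.7 TPM for replication and 17.9 TPM for mitotic genes, and the median increase over control was 9.49 TPM for replication and 15.1 TPM for mitotic genes. Across the 40 genes, a higher control TPM (log2) went with a smaller log2 fold change at day 7 (Pearson r −0.747, Spearman rho −0.679). Within classes r was −0.700 and rho −0.868 for replication genes. For mitotic genes r was −0.542 and rho −0.361, a weaker relation by rank. These describe genes, not samples, and both quantities share the control libraries.

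By day 14 the 40 genes were back at control levels as far as the test could tell. No gene was called in either direction by edgeR, with adjusted p-values of 0.111 to 0.996. Over all genes tested 1.45% were called higher and 0.995% lower. An unadjusted p under 0.05 was found for 4 of the 40 genes and for 3127 of the 17687 genes tested. DESeq2 called 1 of the 40, Prc1, and gave 3 an unadjusted p under 0.05. The class medians were −0.03 for replication and −0.06 for mitotic genes. As a mean over the class, mitotic genes stood −0.0007, −0.16 and 0.24 log2 units from the control mean in day-14 replicates 1, 2 and 3. Control replicates 1, 2 and 3 stood at 0.70, −0.28 and −0.42 units. Each day-14 library thus lay below control replicate 1 and above control replicates 2 and 3. Mki67 stood at 14.2, 6.98 and 12.5 CPM at day 14, Ccna2 at 2.47, 3.09 and 3.22 CPM and Rrm2 at 1.78, 2.27 and 4.89 CPM, all overlapping the controls given above. The largest estimates were those of Prc1, at 26.1, 34.8 and 22.9 CPM (0.88 ± 0.27, adjusted p = 0.111; DESeq2 adjusted p = 0.0233), of Birc5 (−0.92 ± 0.55) and of Cdt1 (−0.91 ± 0.38). E2f1 stood at 2.40, 2.30 and 2.76 CPM at day 14 (−0.78 ± 0.26, adjusted p = 0.138), all below its controls. An adjusted p above the threshold does not show equal levels, and SE values of 0.17 to 0.68 log2 units set what could be seen.

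Set directly against day 7, 13 replication genes and all 26 mitotic genes were lower at day 14, against 12.0% of all genes tested. The medians were −1.59 for replication and −3.87 for mitotic genes. Rrm2 had the largest difference of the replication class (−4.09 ± 0.49) and Bub1b of the mitotic class (−4.43 ± 0.59). Cdc6, at 5.86, 7.01 and 6.37 CPM at day 14, against 5.98, 12.9 and 16.4 CPM at day 7, was the one gene not called (−0.87 ± 0.32, adjusted p = 0.0777). Its lowest day-7 library lay among those of day 14. Mcm7, not called at day 7 against control, was called here (−0.68 ± 0.22, adjusted p = 0.0481), but not with RLE factors (adjusted p = 0.0527), upper quartile factors (0.0681) or only the 2 groups compared (0.0852). The calls of Mcm4, Pcna and Kif23 were also lost when some single libraries were left out.

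**Figure D4:**
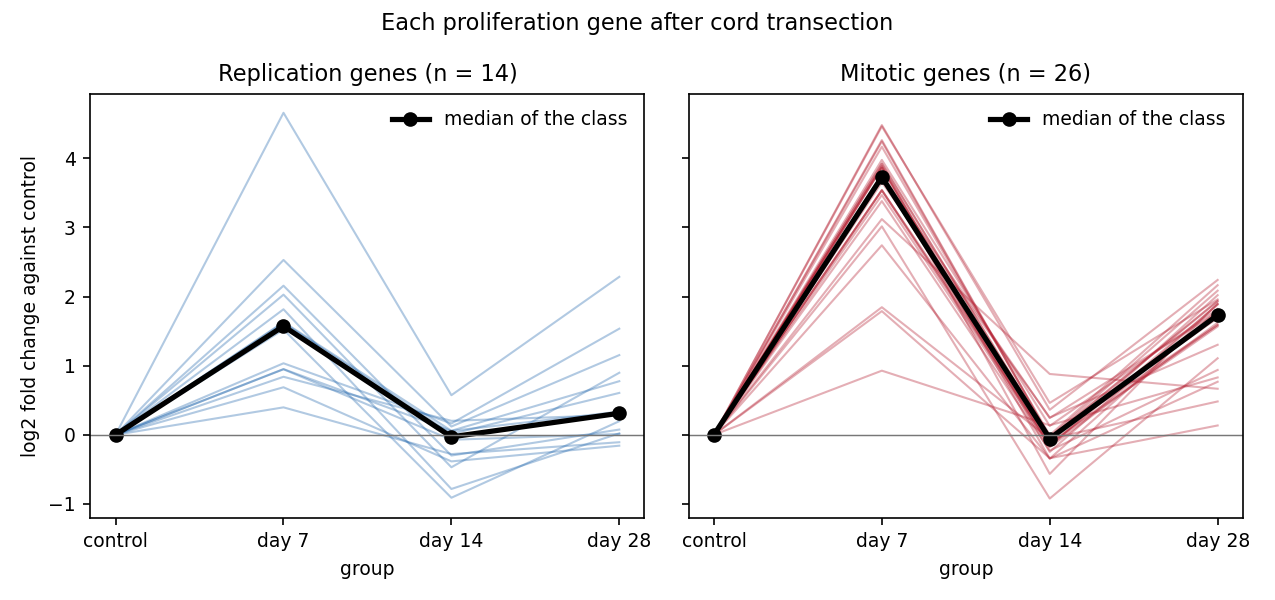
Log2 fold change against control for each replication gene (left, n = 14) and each mitotic gene (right, n = 26) at control (set to 0), day 7, day 14 and day 28, with the class median in black. The replication median is 1.57, −0.03 and 0.31 at days 7, 14 and 28, and the mitotic median 3.73, −0.06 and 1.73.

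At day 28 few replication genes were called higher than control and most mitotic genes were. The estimate was positive for 12 of 14 replication and all 26 mitotic genes. Of the replication genes 3 of 14 were called higher (Rrm2, Ccne1 and Cdc6), and of the mitotic genes 19 of 26, against 11% of all genes tested. The class medians were 0.31 for replication and 1.73 for mitotic genes, a difference of −1.42 log2 units, beside 0.00 over all genes tested. In 5 replication and 11 mitotic genes all day-28 libraries lay above all controls, which held for 20.9% of all genes tested. As a share of each gene's day-7 log2 fold change, the day-28 value was 34.7% in the median replication gene and 46.1% in the median mitotic gene.

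In the replication class Rrm2 stood at 5.24, 9.32 and 14.8 CPM at day 28 (2.29 ± 0.47, adjusted p = 0.00688) and Ccne1 at 1.97, 2.66 and 4.17 CPM (1.15 ± 0.31, adjusted p = 0.0244), both clear of control. The Ccne1 call was lost with only the 2 groups compared (adjusted p = 0.0548), without day-28 replicate 3 (0.0961) and without any 1 control library (0.0503 to 0.0969). Cdc6 (chromosome 10, 86819477 to 86833301), the ATPase that recruits the helicase to origins, stood at 14.6, 13.1 and 22.1 CPM at day 28, against 5.01, 6.92 and 5.25 CPM in control (1.54 ± 0.32, adjusted p = 0.00743). It was the one gene of the 40 with a higher estimate at day 28 than at day 7, though the difference was not called (0.50 ± 0.31, adjusted p = 0.299). None of the 6 MCM subunits was called at day 28, with changes of −0.11 for Mcm7 to 0.90 for Mcm5. Ccne2 (0.08 ± 0.33), E2f1 (0.02 ± 0.26) and Mcm2 (0.01 ± 0.22) were close to 0, although all had been called at day 7. Pcna stood at 62.6, 60.0 and 75.1 CPM (0.29 ± 0.17, adjusted p = 0.276).

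In the mitotic class the cyclins and their kinase were all called. Ccnb1 stood at 2.23, 7.36 and 9.79 CPM at day 28, against 2.96, 0.875 and 0.715 CPM in control (2.08 ± 0.56, adjusted p = 0.0236), and Ccnb2 at 1.80, 4.50 and 6.20 CPM at day 28, against 2.12, 0.474 and 0.464 CPM in control (2.02 ± 0.57, adjusted p = 0.0297). For both B-type cyclins day-28 replicate 1 lay below control replicate 1, and with only the 2 groups compared neither was called (adjusted p = 0.0688 for Ccnb1 and 0.0776 for Ccnb2). Ccna2 stood at 5.64, 10.4 and 16.3 CPM at day 28 (2.24 ± 0.42, adjusted p = 0.00421), Cdk1 at 6.34, 13.6 and 17.2 CPM (1.77 ± 0.36, adjusted p = 0.00621) and Mki67 at 23.2, 49.7 and 78.3 CPM (2.16 ± 0.44, adjusted p = 0.00647). The day-28 libraries were spread widely, but the lowest of them lay above the highest control for Ccna2, Cdk1 and Mki67. Ube2c stood at 1.70, 4.50 and 4.49 CPM (1.96 ± 0.34, adjusted p = 0.00258), Tpx2 at 7.37, 14.9 and 17.3 CPM (1.62 ± 0.31, adjusted p = 0.00464) and Cenpe at 6.80, 12.7 and 15.5 CPM (1.57 ± 0.30, adjusted p = 0.00427). These too did not overlap control. The 7 mitotic genes not called were Cdc20 (0.94 ± 0.37), Kif20a (1.59 ± 0.65), Birc5 (1.11 ± 0.50), Bub1 (0.77 ± 0.26), Prc1 (0.67 ± 0.27), Aurka (0.48 ± 0.26) and Foxm1 (0.13 ± 0.21), with adjusted p-values of 0.0655 for Bub1 to 0.706 for Foxm1.

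The day-28 counts changed with single libraries. Replicate 3 was the highest day-28 library for 12 of 14 replication genes and 24 of 26 mitotic genes, and replicate 1 the lowest for all 26 mitotic genes. Mean replication levels stood 0.21, 0.47 and 0.97 log2 units above the control mean in day-28 replicates 1, 2 and 3, and mitotic levels 0.71, 1.73 and 2.15 units above it. Control replicate 1 was the lowest control for 10 of 14 replication genes and the highest for 24 of 26 mitotic genes. Its mitotic mean, 0.70 units above the control mean, was about level with that of day-28 replicate 1. The replication mean minus the mitotic mean was −0.84, 0.54 and 0.30 in control replicates 1, 2 and 3. At day 28 it was −0.51, −1.26 and −1.17, so the class gap of control replicate 1 was wider than that of day-28 replicate 1. At day 28 the number called was 11 when day-28 replicate 3 was left out, 11 when control replicate 2 was, 11 when control replicate 3 was and 26 when day-28 replicate 1 was. Of the 19 mitotic calls, 9 held in every alternative run.

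**Figure D5:**
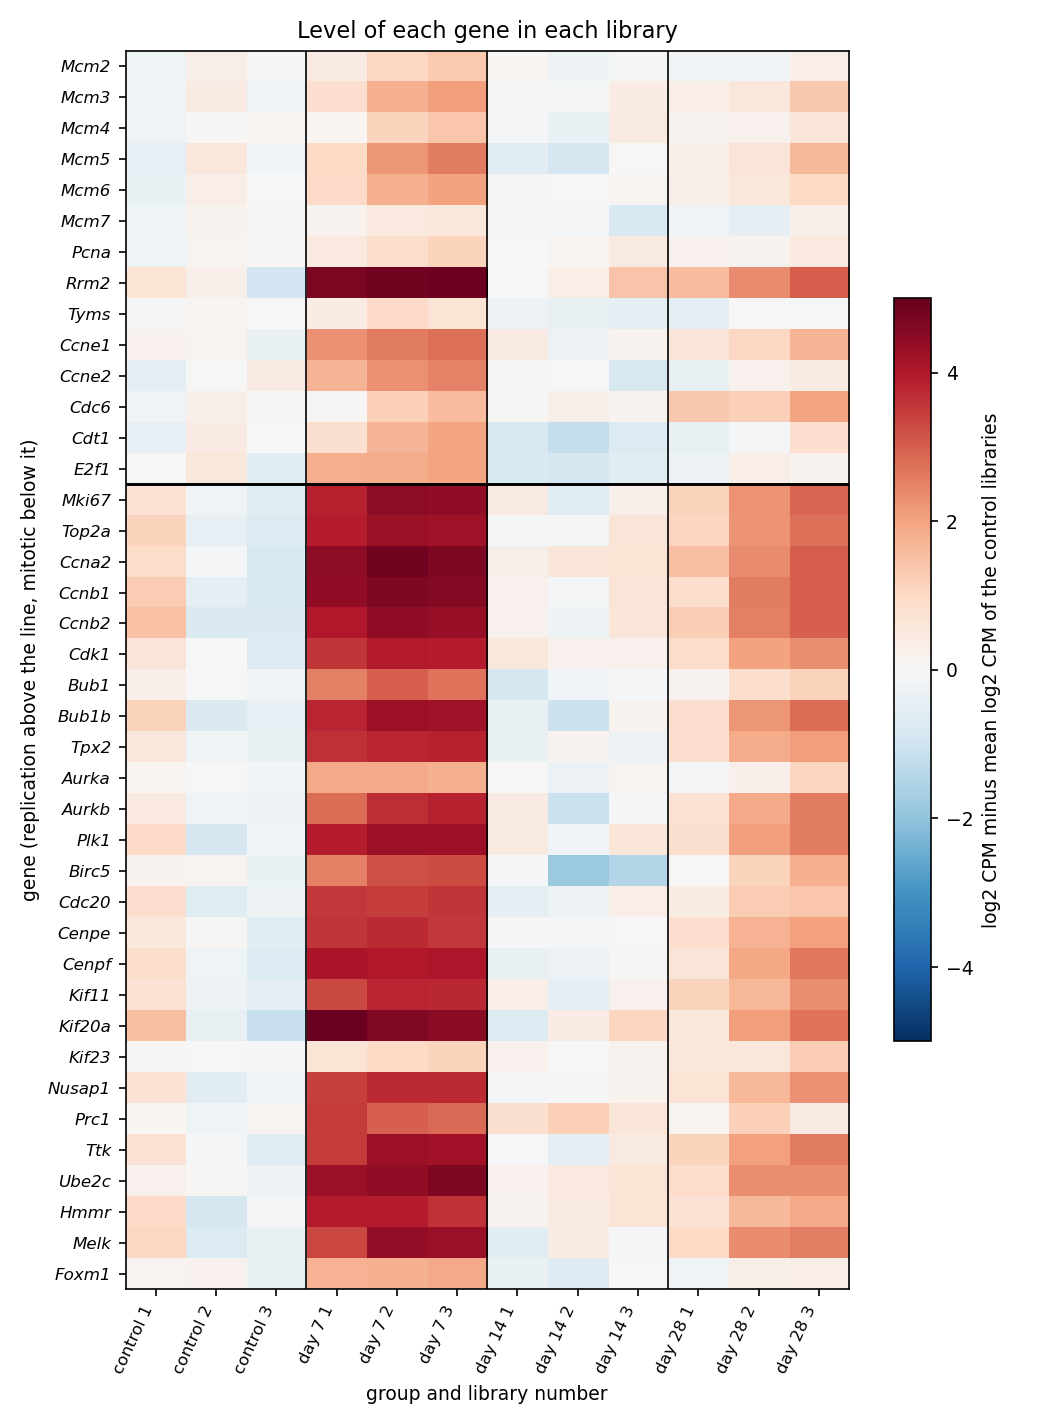
Log2 CPM minus the mean log2 CPM of the control libraries, on a colour scale of −5 to 5, for the 40 genes (rows, replication above the line and mitotic below it) in the 12 libraries (columns, control, day 7, day 14 and day 28). Control replicate 1 is paler red than the day-7 libraries over the mitotic rows, and day-28 replicates 1 to 3 differ in strength over the same rows.

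Set against day 14, 1 replication gene (Cdc6) and 15 mitotic genes were higher at day 28, against 3.13% of all genes tested, with medians of 0.66 for replication and 1.71 for mitotic genes. Bub1b had the largest difference (2.47 ± 0.56, adjusted p = 0.0328) and Tpx2 the smallest p (1.80 ± 0.31, adjusted p = 0.0117). Cdc6 differed by 1.37 ± 0.32 (adjusted p = 0.0357). None of these 16 calls held in every alternative, and with only the 2 groups compared no gene of the 40 was called. These counts also changed with single libraries: 2 of the 40 genes were called without day-14 replicate 2, 2 without day-28 replicate 2, 2 without day-28 replicate 3, 4 without day-14 replicate 1, 9 without day-14 replicate 3 and 24 without day-28 replicate 1. Set against day 7, 9 replication genes and 25 mitotic genes were lower at day 28, against 10.8% of all genes tested, with medians of −0.98 for replication and −1.98 for mitotic genes. Kif23 was the mitotic gene that was not called, at 39.8, 40.4 and 65.5 CPM at day 28, against 43.4, 53.9 and 58.5 CPM at day 7 (−0.10 ± 0.18, adjusted p = 0.754). The replication genes not called were Mcm3, Mcm4, Mcm5, Mcm7 and Cdc6, of which DESeq2 called Mcm3 (adjusted p = 0.0485) and Mcm5 (adjusted p = 0.0400) lower.

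Other genes of the same processes were taken as whole lists, chosen with earlier results of these data known. The genes named with values are mainly those with the smallest p at day 7 in their list, so they do not stand for the whole list. Over all genes tested, 15.6% were called higher and 10.5% lower at day 7. Of 30 further replication fork and nucleotide genes 19 rose and none fell at day 7 (median 0.71), among them the histone chaperone Asf1b (4.67 ± 0.46), the methylation maintenance factor Uhrf1 (3.77 ± 0.49), the flap nuclease Fen1 (1.89 ± 0.28) and the polymerase subunit Pole2 (1.87 ± 0.28). Asf1b stood at only 0.179 to 0.453 CPM in control, so the size of its fold is uncertain. Of 16 further licensing and helicase genes 11 rose and none fell at day 7 (median 1.05), including Gins2 (1.90 ± 0.29), Cdc45 (2.60 ± 0.41) and Orc1 (3.13 ± 0.55). Dbf4, the activator of the Cdc7 kinase, stood at 0.843, 1.32 and 1.45 CPM at day 7, against 0.0696, 0.0729 and 0.0715 CPM in control, too few reads in control for a useful fold. Of 41 further kinetochore, spindle and chromosome genes 40 were called higher and 1, Zwint, lower, with a median of 3.30. Tacc3, which stabilizes spindle microtubules, rose by 3.31 ± 0.20, the cytokinesis scaffold Anln by 3.90 ± 0.25, the cohesin protector Sgo1 by 3.83 ± 0.32 and the kinetochore scaffold Knl1 by 3.28 ± 0.30. At day 28 the counts called higher were 2 of 30 fork, 1 of 16 licensing and 20 of 41 mitotic genes, and 1 fork gene (Pold2) and 1 mitotic gene (Zwint) were lower. Over all genes tested 11% were higher and 7.51% lower at day 28. The few calls in the fork and licensing lists do not set them apart from that share. Their median log2 fold changes at day 28 were 0.19 for fork and 0.39 for licensing genes, beside 0.00 over all genes tested. At day 14 none of these 3 lists had a called gene.

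The regulators upstream of S phase moved less uniformly. Of 10 G1 cyclins and cyclin-dependent kinases, 1 was higher at day 7 (Cdk4, 0.47 ± 0.11) and 2 were lower, at a median of 0.22, against 15.6% higher and 10.5% lower over all genes tested. Ccnd1 (cyclin D1) stood at 135, 147 and 139 CPM at day 7, against 165, 243 and 247 CPM in control (−0.64 ± 0.13, adjusted p = 0.00545), and it was the one gene of these lists called at day 14 (−0.83 ± 0.13, adjusted p = 0.0166). Ccnd2 (cyclin D2) stood at 106, 89.6 and 94.4 CPM at day 7, against 183, 181 and 173 CPM in control (−0.89 ± 0.19), and at 57.8, 49.1 and 76.1 CPM at day 28 (−1.55 ± 0.19, adjusted p = 0.000409). Ccnd1 and Ccnd2 were thus lower at day 7, when the E, A and B cyclins described above were higher. Cdk2, the partner of cyclins E and A, stood at 0.37 ± 0.13 (adjusted p = 0.0557). Of 18 E2F and DREAM regulators 8 rose and 1, Tfdp2, fell at day 7, beside the same shares over all genes. Mybl2, the MuvB partner that turns mitotic genes on, stood at 3.89, 9.60 and 13.8 CPM at day 7, against 0.0696, 0.583 and 0.214 CPM in control (4.96 ± 0.79, adjusted p = 0.00116). The repressors E2f7 and E2f8 rose by 3.61 ± 0.61 and 3.01 ± 0.49 and the pocket protein gene Rbl1 by 1.13 ± 0.19. Control levels of Mybl2, given above, and of E2f7, at 0.214 to 1.04 CPM, were low, so the sizes of their folds are uncertain.

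Among 12 tested cell cycle inhibitors and p53 targets, 3 were called higher at day 7 and 1, Cdkn1c, lower, and the rest were not called. The shares over all genes tested were 15.6% higher and 10.5% lower. Cdkn1c (p57), an inhibitor of cyclin-dependent kinases, stood at 12.7, 8.94 and 7.46 CPM at day 7, against 68.1, 26.2 and 34.4 CPM in control (−2.14 ± 0.39, adjusted p = 0.00260), and at 17.6, 14.4 and 7.67 CPM at day 28 (−1.70 ± 0.39, adjusted p = 0.0112). The groups did not overlap on either day, and control replicate 1 was the highest. Cdkn2c, an inhibitor of Cdk4 and Cdk6, rose by 1.19 ± 0.30 and the anaphase-promoting complex activator Fzr1 by 0.47 ± 0.16 (adjusted p = 0.0493). Cdkn1a (p21), another inhibitor of cyclin-dependent kinases, stood at 76.2, 68.3 and 81.1 CPM at day 7, against 75.6, 80.4 and 67.9 CPM in control (0.01 ± 0.17, adjusted p = 0.974). It was higher at day 14 than at day 7, at 133, 86.0 and 136 CPM (0.65 ± 0.17, adjusted p = 0.0212).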

How the data were processed

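RNA was measured in 12 bladder libraries, 3 in each of the groups day 7, day 14, day 28 and normal control, which were taken from the sample titles. The authors deposited raw read counts per gene and per non-coding transcript, and TPM per gene, per the file headers. The build rn6 and the tools HTSeq 0.11.2, HISAT2 2.1.0 and bcl2fastq are named, per the submitters' processing notes, in roles not given there. Neither the annotation nor the strand setting is stated, so counts of overlapping genes are uncertain. Genes kept by filterByExpr (minimum count 10, minimum total 15) entered edgeR 4.0.16 (R 4.3.3; TMM, 1 quasi-likelihood fit over 12 libraries, Benjamini-Hochberg over 17687 genes, threshold 0.05). The SE was obtained from the F statistic and the fold change. TPM, the authors' deposited values, served for levels between genes. The alternatives were DESeq2 1.42.0, RLE and upper quartile factors, no filter, a mean of at least 5 CPM, only the 2 groups compared, a replicate block, narrower classes, a shorter promoter window and each library left out. The procedure was tested on simulated counts for day 7 against control over 17687 genes: 86% of genes raised and 70.2% of genes lowered by 2 log2 units were called, with 42% and 52.1% at 1 unit. Members and lists were chosen with earlier results of these data known, so their counts are described and not tested as sets. Library values are printed for the genes with the smallest p or highest counts in each class, for those not called at day 7 and for the leading calls at day 28, and up to 4 genes a list by smallest p. Aurka, Foxm1, Kif23, Cdc6, Birc5, Ccnb1 and Ccnb2 were added after their values were seen. One gene of the lists is not reported here. The deposited tables of non-coding comparisons and of mRNA isoforms were not used.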

Additional observations from a re-analysis of the deposited data

Results flagged for a closer look

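The change against control differed between days for many of the genes, by the test of one day against the other. From day 7 to day 14 it was lower for 13 replication and 26 mitotic genes, from day 14 to day 28 higher for 1 replication and 15 mitotic genes, and at day 28 lower than at day 7 for 9 replication and 25 mitotic genes. Whether the classes themselves differ in these changes was not tested, since the members were chosen with results known.

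Non-coding transcripts of 2 of the genes, which the comparisons above did not use, carried counts. The non-coding transcript listed for Bub1b held 2089 counts over all libraries, and the 2 listed for Mcm4 held 13239 and 11848. These equal 89.3%, 100% and 89.5% of the gene's own counts. The values of the 2 Mcm4 transcripts sum to more than the counts of the gene, so they are not separate shares of it.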

How the results depend on the processing

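The run at a mean of at least 5 CPM tested only 35 of the 40 genes. Of the calls at day 7, those of 8 of 13 replication and all 26 mitotic genes held in every alternative that tested the gene. At day 28 those of 2 of 3 replication and 9 of 19 mitotic genes did. Between days 14 and 7 those of 10 of 13 replication and 25 of 26 mitotic genes did, between days 28 and 14 0 of 1 and 0 of 15, and between days 28 and 7 5 of 9 and 20 of 25. Leaving out 1 library at a time gave 35 to 39 members called at day 7, 0 at day 14, 11 to 26 at day 28, 35 to 40 between days 14 and 7, 2 to 24 between days 28 and 14 and 25 to 37 between days 28 and 7. With only the 2 groups compared, 1 gene was called at day 14, 14 at day 28 and 0 between days 28 and 14. DESeq2 called 1 at day 14 and 25 between days 28 and 14. Over all genes, day 14 against control gave 257 higher and 176 lower calls in the fit reported, 803 and 499 with DESeq2, 160 and 91 at a mean of at least 5 CPM, and 16 and 22, 6 and 10, and 11 and 11 without control replicates 1, 2 and 3. Day 28 against day 14 gave 553 higher and 215 lower, 1079 and 530 with DESeq2 and 28 and 14 with only the 2 groups, and day 14 against day 7 gave 1343 higher and 2114 lower, and 708 and 1487 with only the 2 groups. With 1 library left out, day 7 against control gave 1930 to 2798 higher and 1077 to 2090 lower (2757 and 1865 in the fit reported), day 28 against control 1209 to 1936 and 760 to 1347 (1946 and 1329), day 14 against day 7 643 to 1349 and 1316 to 2082, day 28 against day 14 197 to 773 and 64 to 347, and day 28 against day 7 742 to 1373 and 1212 to 1902 (1395 and 1915). Upper quartile factors moved the split at day 7 to 2530 higher and 2326 lower.

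The replication minus mitotic difference at day 7 was −2.70 at a mean of at least 5 CPM, −2.68 with narrow classes and −2.78 to −1.76 with 1 library left out. The same difference between days 14 and 7 was 2.69, 2.78 and 2.09 to 2.44, at day 28 against control −1.92 to −1.14, and at day 14 −0.56 to 0.33 with 1 library left out. In the shorter promoter window 1 replication gene had a CHR. The labels do not say that replicate numbers pair the libraries. Deviations from the group means correlated at −0.02 to 0.15 (median 0.05) in 18 same-numbered pairs and at −0.21 to 0.10 (median −0.02) in 36 others, and the 3 same-numbered pairs of days 14 and 28 at 0.096, 0.132 and 0.123. The numbers were not used as pairs. With a replicate block 39 genes were called at day 7, 0 at day 14, 19 at day 28, 38 between days 14 and 7, 12 between days 28 and 14 and 36 between days 28 and 7. The block called Mcm6 at day 28 (0.59, adjusted p = 0.0477) and Mcm3 (0.0463) and Mcm5 (0.0377) between days 28 and 7, and not Mcm7 between days 14 and 7 (0.0680) or Ccnb2 at day 28 (0.0521).

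Among the estimates followed through the alternatives, signs turned only for genes that were not called. For day 14 against control only 6 genes were followed, so turns of sign in the others were not examined. At day 14 Mki67 stood at 0.0067 with DESeq2, 0.0047 with RLE factors and −0.23 to 0.44 with 1 library left out, and Bub1b at −0.90 to 0.25. At day 28 upper quartile factors gave Mcm2 −0.015 and E2f1 −0.0041. With 1 library left out, day-28 values were −0.040 to 0.26 for Foxm1, −0.16 to 0.18 for Mcm2, −0.31 to 0.038 for Mcm7, −0.11 to 0.28 for Ccne2, −0.24 to 0.43 for Cdt1 and −0.22 to 0.34 for E2f1. Between days 28 and 14 they were −0.088 to 0.17 for Mcm2, −0.043 to 0.32 for Mcm7 and −0.019 to 0.20 for Pcna, and between days 28 and 7 −0.37 to 0.020 for Kif23. The cause of these shifts was not tested. Depth limits low genes such as Birc5, at 0.473, 0.138 and 0.177 CPM at day 14.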

Other observations

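Markers of other cell types that bladder tissue can hold gave the following values. Of 7 tested neutrophil markers 3 were higher than in control at day 7, 2 at day 14 and 3 at day 28, and the 8 listed summed to 6.06 to 6.70 CPM in control, 34.4 to 61.5 CPM at day 7, 15.5 to 217 CPM at day 14 and 89.9 to 128 CPM at day 28. Of 7 mast cell markers 5 were higher at day 7, 4 at day 14 and 3 at day 28. Of 10 fibroblast markers 3 were higher at day 7, 1 was lower at day 14, and 2 were higher and 3 lower at day 28. The fibroblast markers summed to 20916 to 26593 CPM in control and 35148 to 42051 CPM at day 7. Their sums were 10155 to 15045 CPM at day 14 and 8588 to 17906 CPM at day 28. Of 10 smooth muscle markers 4 were higher and 2 lower at day 7, none was called at day 14 and 2 were lower at day 28. Their part in the results on the 40 genes was not tested.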
